A study of Mus musculus with 148 samples.

Results

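DNA modification at the lactase locus was compared in enterocytes of segment 8, the medial ileum, between mice aged 60 days (P60) and mice aged 90 days that drank lactose-free milk (P90 lac-). All samples labelled P60 Seg_8 (8 samples) and all segment 8 samples labelled ctrl at P90 (7 samples) were taken, which are 15 of the 148 samples of the series. The labels number replicates and do not name mice. Each sample is counted as a separate mouse throughout, which is an assumption. The paper describes the 148 samples as unique and mentions additional replicates. Its correlation with *Lct* mRNA along the gut used fewer than 8 mice per P60 segment. Whether any samples share a mouse was not tested. The series follows the lactase gene along 9 segments of the small intestine, at several ages and after milk with or without lactose. Both groups were C57BL/6NCrl mice (the strain field of the labels spells it C57BL/6MCrl) on free food, with no altered allele given, and their enterocytes, the absorptive cells of the gut lining, were released with a chelating agent. The P60 mice drank water, whereas the P90 lac- mice had lactose-free milk in its place from day 30 for 60 days, so that age and drink cannot be told apart in this comparison, and the ages came from different mice. Reads were counted at each cytosine after bisulfite conversion, which turns unmodified cytosine into a base read as thymine and spares methylated and hydroxymethylated cytosine. Percent modification is the modified share of those reads. No RNA was measured in these files, so the cell type could not be checked against marker genes.

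Each read adds 1 call to every cytosine it covers, and the calls over all cytosines of the locus came to between 18243236 and 23978509 per P60 sample and between 19797385 and 85286360 per P90 lac- sample. The largest belonged to replicate 6, the 1 P90 lac- sample whose data are marked as merged. The median number of reads per covered CpG row was 1083 to 1656.5 and 1078 to 5953. P60 samples came from sequencing lanes 5, 6 and 7 (3, 2 and 3 samples) and P90 lac- samples from lanes 1, 6 and 7 (1, 4 and 2 samples). A lane number that both ages share is not stated to be the same run.

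*Lct* encodes lactase, the brush border enzyme that splits milk sugar, and its expression falls after weaning in most mammals. *Mcm6*, its upstream neighbour, encodes a subunit of the replicative helicase, and its intron 13 carries the human variants that keep lactase on in adults. DNA modification at control regions of a gene is commonly higher where the gene is less active, and lactase is made in the jejunum more than in the ileum.

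In segment 8 the mean modification of the locus was 80.9% in P60 and 80.6% in P90 lac- mice, and 0 of 660 CpG rows (0%) passed the threshold that the study used. A CpG row is the cytosine of a CpG on 1 strand. The upstream element at *Mcm6* exon 13-intron 13 had nearly the same mean at both ages and differed widely from mouse to mouse. The clearest differences between the groups were small. Highly modified CpGs were slightly lower, and cytosines outside CpGs slightly higher, in the P90 lac- libraries. The difference outside CpGs was also present at targets elsewhere in the genome and at positions read from the synthetic capture probes. Highly modified CpGs were also lower on average at those targets (exact permutation p = 0.262) and in segment 7 (not tested).

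*Lct* exon 1, *Lct* intron 2 and the *Mcm6* element were each defined as a cluster of cytosines whose modification differed along the gut in the other 8 segments of P60 mice, so that segment 8 samples chose none of their CpGs. Those other P60 samples can, however, come from the same mice as the P60 samples of segment 8. Both genes lie on the minus strand of chromosome 1. The *Mcm6* element holds 18 CpG rows between positions 128337771 and 128338385 of GRCm38, *Lct* intron 2 holds 4 between 128314519 and 128314931, and *Lct* exon 1 holds 6 between 128327865 and 128328160. The *Mcm6* element, named after exon 13 and intron 13, also reaches past position 128338277, where exon 13 borders intron 12, into that intron. The stretches below are those on which the comparison of the elements rests, read from the plus strand of GRCm38 with the measured CpGs in capitals. The first, chr1:128338073-128338215, is the dense part of the *Mcm6* element, where the first of the 7 CpGs lies in intron 13 and the others in exon 13. The second, chr1:128314489-128314550, surrounds the first CpG of the *Lct* intron 2 cluster, and the third, chr1:128327835-128327896, surrounds a coding CpG of *Lct* exon 1.
Mcm6 exon 13-intron 13, dense stretch: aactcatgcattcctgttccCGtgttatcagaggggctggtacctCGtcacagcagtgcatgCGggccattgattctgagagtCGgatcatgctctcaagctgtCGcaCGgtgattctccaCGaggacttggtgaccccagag
Lct intron 2, first CpG: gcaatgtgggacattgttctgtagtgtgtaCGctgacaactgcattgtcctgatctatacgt
Lct exon 1 CpG: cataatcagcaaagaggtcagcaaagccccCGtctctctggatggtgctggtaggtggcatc

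At *Mcm6* exon 13-intron 13, the mean modification of the P60 mice had a lowest value of 62.8%, a median of 76.3% and a highest value of 78.97%. In the P90 lac- mice the lowest value was 64.7%, the median 74.0% and the highest 80.7%. The groups covered nearly the same range, with 2 P60 mice (63.7% and 62.8%) and 2 P90 lac- mice (64.7% and 66.8%) below all others. The means were 73.3% ± 6.45 (SD, n = 8) and 73.2% ± 5.70 (SD, n = 7), a difference of -0.07 percentage points (P90 lac- minus P60, as throughout; two-sided exact permutation test over 6435 splits, p = 0.997). The 95% interval of that difference, from the same exact test, ran from -6.88 to 6.88 points. Of its 18 CpG rows, 8 were higher and 10 lower in the P90 lac- mice, between -3.01 and 4.86 points, and 0 had an unadjusted p under 0.05 in a quasi-binomial F test of their read counts. The row with the lowest p, at position 128337771 in intron 13, was at 81.8% ± 5.16 (SD) and 86.6% ± 5.32 (quasi-binomial p = 0.115, Benjamini-Hochberg adjusted p = 0.373). Of the 18 rows, 1 lies under the arm of a capture probe, and the difference without it was -0.10 points.

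Within lanes, the order of the ages at this element differed. The 2 low P60 mice were the only P60 samples on lane 6, where the 4 P90 lac- samples averaged 76.98% against 63.2%, a difference of 13.8 points. On lane 7 the order was the other way, 77.8% in 3 P60 and 69.0% in 2 P90 lac- samples, a difference of -8.81 points. Neither passed an exact permutation test within its lane (p = 0.133 on lane 6 and p = 0.2 on lane 7, the smallest that their 6 and 5 samples allow), and the part of the lane in these values was not tested. Over both lanes, with age permuted within lanes, the difference was 3.07 points (exact p = 0.560).

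*Lct* intron 2, an element inside the transcribed gene, was at 46.2%, 59.2% and 62.01% in the lowest, median and highest P60 mouse and at 46.003%, 54.2% and 65.1% in the P90 lac- mice. The ranges overlapped over nearly their whole length. The means were 56.1% ± 6.34 (SD, n = 8) and 54.3% ± 5.82 (SD, n = 7), which differed by -1.80 points with an interval from -8.66 to 5.27 (exact permutation p = 0.570). The lanes again went in opposite directions, with differences of 10.1 points on lane 6 and -9.98 points on lane 7.

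*Lct* exon 1, which holds the start codon, varied least of the 3 elements. It was at 91.0%, 91.6% and 92.1% in the lowest, median and highest P60 mouse, and at 88.9%, 91.5% and 92.1% in the P90 lac- mice. The 2 lowest of the 15 samples, 88.9% and 90.0%, were both P90 lac-. The means were 91.6% ± 0.362 (SD, n = 8) and 91.0% ± 1.19 (SD, n = 7), a difference of -0.58 points with an interval from -1.53 to 0.36 (exact permutation p = 0.241). Over all 9 covered CpG rows of the annotated exon the difference was -0.99 points (exact p = 0.0255), which did not pass correction over 55 regions (adjusted p = 0.122).

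**Figure D1:**
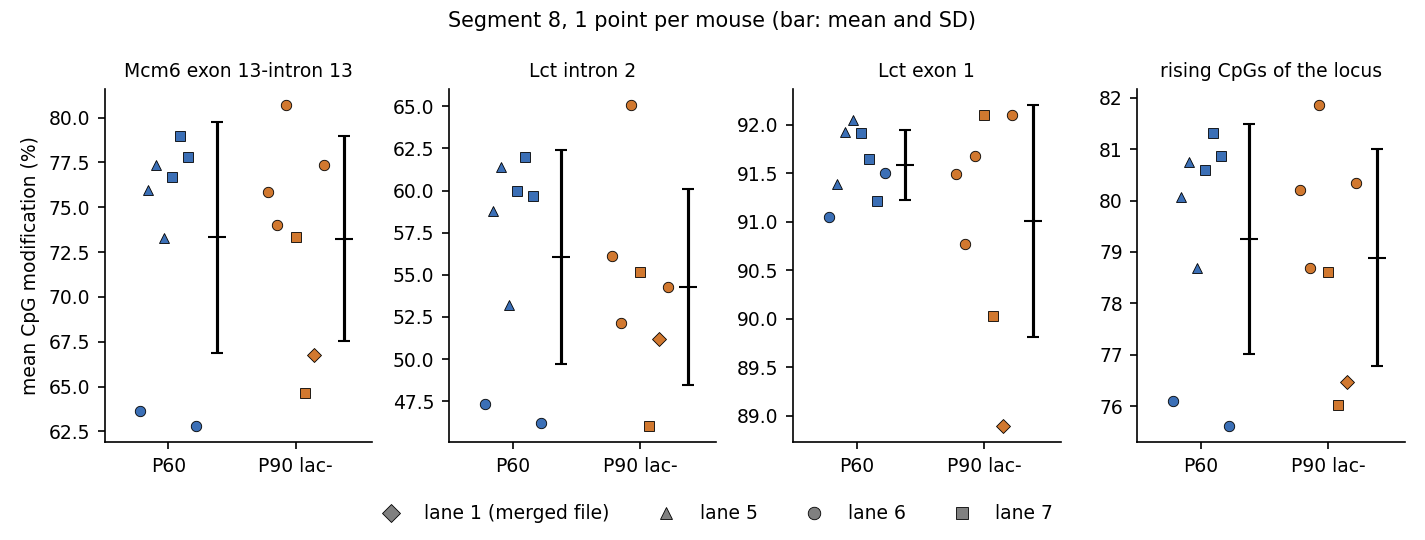
Mean CpG modification (%, y axes that do not start at 0) of 3 elements and of the rising CpGs of the locus in segment 8, 1 point per mouse, with the sequencing lane as the symbol and bars for mean and SD. P60 (8 mice) and P90 lac- (7 mice) overlap in all panels, and the 2 P60 mice on lane 6 are the lowest of their group at the *Mcm6* element (63.7% and 62.8%).

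The levels of the elements in neighbouring segments are given as a description, since P60 samples of segments 7 and 9 were among those that chose the clusters. In segment 7 of P60 mice the *Mcm6* element averaged 63.3% ± 7.41 (SD, n = 8), below the 73.3% of segment 8. Segment 9 followed with 80.04% ± 2.32 (SD, n = 8). Segment 7 of the P90 lac- mice was at 60.3% ± 6.005 (SD, n = 6), below the 73.2% of their segment 8. P90 mice given milk with lactose (LAC+, n = 7) were at 73.9% ± 5.72 in segment 8. At *Lct* intron 2 the P60 means were 50.2%, 56.1% and 64.1% in segments 7, 8 and 9, against 46.1% and 54.3% in segments 7 and 8 of P90 lac- mice. The LAC+ mice of segment 8 were at 51.5% ± 5.92 (SD) at *Lct* intron 2 and at 89.95% ± 0.914 (SD) at *Lct* exon 1, values given without a test.

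**Figure D2:**
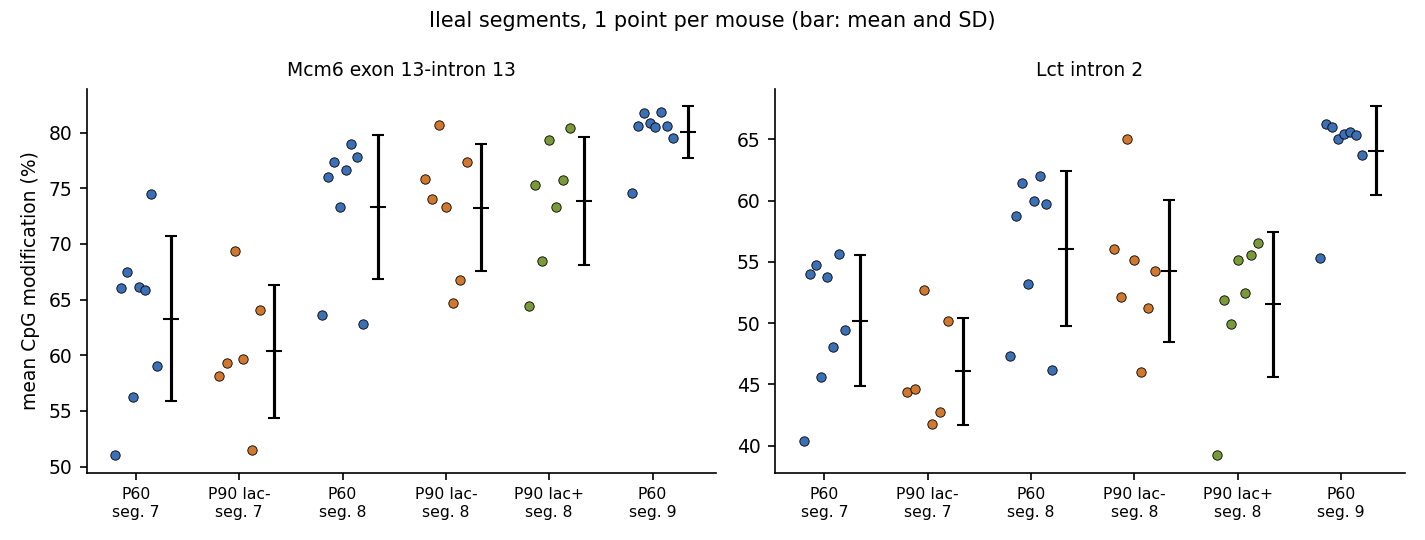
Mean CpG modification (%, y axes that do not start at 0) of the *Mcm6* element (left) and *Lct* intron 2 (right) in ileal segments 7, 8 and 9, 1 point per mouse, with bars for mean and SD. Segment 8 lies between segments 7 and 9 on average at P60, and the P60, P90 lac- and LAC+ mice of segment 8 cover like ranges.

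A wider set of 97 CpG rows rose from segment 3 to segment 9 at P60 and was called over the other 8 segments. The 93 of these covered in every segment 8 sample averaged 79.2% ± 2.24 in P60 mice (SD, n = 8) and 78.9% ± 2.11 in P90 lac- mice (SD, n = 7). The difference of -0.36 points had an interval from -2.81 to 2.11 (exact permutation p = 0.745). Of the 97 rows, 66 were lower and 31 higher in P90 lac- mice with a median of -0.51 points, beside 420 lower and 240 higher with a median of -0.38 points among all 660 CpG rows tested.

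*Mcm6* exon 13-intron 13 and *Lct* intron 2 differed together from mouse to mouse. Across the 15 samples they had a Pearson r of 0.93 (permutation p = 1e-05, the smallest that 100000 resamples can give, adjusted p = 9e-05) and a Spearman rho of 0.90 (permutation p = 4e-05, adjusted p = 0.00036). Without the 2 samples farthest from the median of the *Mcm6* element, r was 0.89. Within the P60 mice r was 0.98 (n = 8, exact permutation p = 0.000223, adjusted p = 0.0010) and rho 0.93 (exact p = 0.00223, adjusted p = 0.010), and r was 0.95 without the 2 mice on lane 6, which were the farthest from the median. Within the P90 lac- mice r was 0.88 (n = 7, exact permutation p = 0.00536, adjusted p = 0.0161) and rho 0.82 (exact p = 0.0341, adjusted p = 0.102), and r was 0.84 without the 2 farthest mice. Lane 6, the only lane with at least 6 samples, gave r = 0.91 (n = 6, exact permutation p = 0.00417) and rho = 0.94 (exact p = 0.0167). For *Lct* exon 1 and the *Mcm6* element the 15 samples gave r = 0.55 (permutation p = 0.029, adjusted p = 0.0554), rho = 0.39 (permutation p = 0.149, adjusted p = 0.192) and r = 0.75 without the 2 farthest samples. Within the P60 mice that pair gave r = 0.41 (n = 8, exact permutation p = 0.306, adjusted p = 0.344), rho = 0.14 (exact p = 0.752) and r = -0.47 without the 2 farthest mice. Within the P90 lac- mice it gave r = 0.80 (n = 7, exact permutation p = 0.0308, adjusted p = 0.0554), rho = 0.68 (exact p = 0.11, adjusted p = 0.192) and r = 0.21 without the 2 farthest mice. For *Lct* exon 1 and *Lct* intron 2, r was 0.46 (permutation p = 0.079, adjusted p = 0.118), rho 0.45 (permutation p = 0.0948, adjusted p = 0.192) and r without the 2 farthest samples 0.35. Within the P60 mice r was 0.36 (n = 8, exact permutation p = 0.368), rho 0.36 (exact p = 0.389, adjusted p = 0.438) and r without the 2 farthest mice -0.32. Within the P90 lac- mice r was 0.58 (n = 7, exact permutation p = 0.187, adjusted p = 0.240), rho 0.64 (exact p = 0.139, adjusted p = 0.192) and r without the 2 farthest mice 0.82. None of the relations with *Lct* exon 1 had an adjusted p under 0.05. Within the P60 mice their r changed sign without the 2 farthest mice. Over all samples and within the P90 lac- mice their r stayed positive. The 9 relations outside the lane, 3 pairs of elements over all samples and within each age, were corrected as 1 family. All 3 elements were chosen for differing along the gut, and no other clusters were compared in this way.

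**Figure D3:**
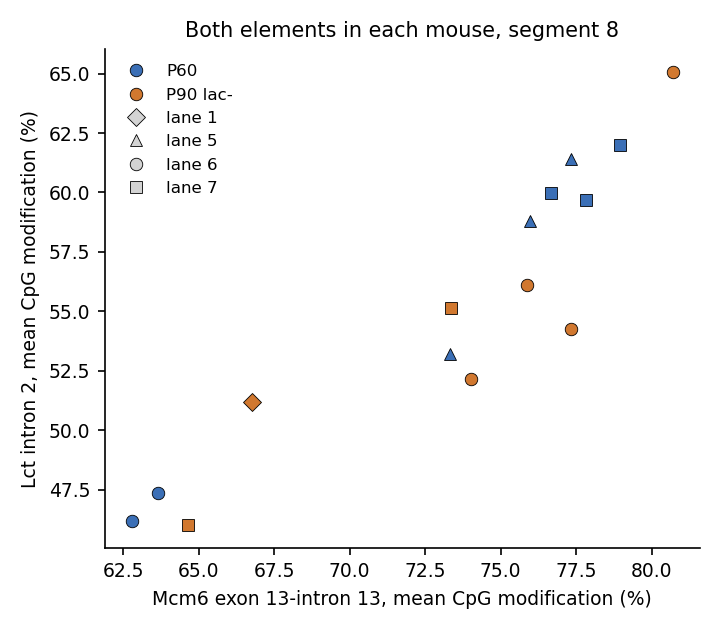
Mean CpG modification (%) of the *Mcm6* element (x axis) and *Lct* intron 2 (y axis) in each of the 15 segment 8 samples, with color for age and the symbol for the lane. Mice low at one element are low at the other at both ages (r = 0.93), and the points of the 2 ages share 1 band.

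In the quasi-binomial F test, which compares the modified and unmodified counts of the groups and estimates 1 dispersion per cytosine, a dispersion of 1 is the spread expected from counting alone. Its median was 41.0 over the 18 rows of the *Mcm6* element and 24.7 over the 4 rows of *Lct* intron 2, against 4.92 over the 6 rows of *Lct* exon 1 and 4.11 over all 660 CpG rows of the locus. Where samples differ beyond counting, this dispersion also grows with the number of reads. The median number of reads per value was 2271.5 at the *Mcm6* element, 1136 at *Lct* intron 2 and 1795.5 at *Lct* exon 1. It was 1687 over the locus CpG rows covered in every sample.

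Single CpGs were tested where at least 3 samples of each group had more than 30 reads. After Bonferroni correction over 660 CpG and 10244 CpH rows together, with a threshold of 0.01, the quasi-binomial F test called 0 of 660 CpG rows (0%), and limma on log2 odds called 0 too. At an unadjusted p under 0.05 the F test gave 123 CpG rows (18.6%), 96 lower (14.5%) and 27 higher (4.09%) in P90 lac- mice. Limma gave only 39 of the same 660 rows at that cutoff, so the tests differed in how many rows had a low p. With Benjamini-Hochberg correction at 0.05 over the CpG rows alone, 2 of 660 passed (0.303%), 1 higher (0.152%) and 1 lower (0.152%). With that correction over CpG and CpH rows together, 6 of 660 CpG rows passed. Its cutoff eases as the family holds more low p, and 1829 of the 10244 CpH rows had an unadjusted p under 0.05. The groups did not overlap at 4 CpG rows (0.606%), 2 higher and 2 lower (0.303% each), of which 2 had values above the read minimum in all 15 samples. These were the same 2 rows that passed the Benjamini-Hochberg correction, and their surroundings are shown next on the plus strand of GRCm38, with the measured CpG in capitals: chr1:128355573-128355634 in *Mcm6* exon 2 and chr1:128298677-128298738 in *Lct* exon 9, both coding. The third, on the minus strand in *Mcm6* exon 12 (chr1:128339423-128339484), is shown because its CpG lies under a probe arm.
Mcm6 exon 2 CpG: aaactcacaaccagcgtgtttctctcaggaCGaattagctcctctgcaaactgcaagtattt
Lct exon 9 CpG: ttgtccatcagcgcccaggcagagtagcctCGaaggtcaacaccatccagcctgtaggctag
Mcm6 exon 12 CpG: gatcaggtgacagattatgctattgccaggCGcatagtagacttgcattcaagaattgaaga

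The CpG in *Mcm6* exon 2 (position 128355603, plus strand) was higher in the P90 lac- mice. Its values were 57.4%, 61.6% and 64.1% in the lowest, median and highest P60 mouse, and 65.1%, 67.3% and 70.5% in the P90 lac- mice, so that every P90 lac- mouse was above every P60 mouse. The means differed by 5.99 points (SE 1.08, quasi-binomial p = 8.39e-05, Benjamini-Hochberg adjusted p = 0.0407 over CpG rows and Bonferroni adjusted p = 0.915 over CpG and CpH rows). The cytosine of the opposite strand differed by 7.45 points in the same direction (quasi-binomial p = 0.0176, unadjusted). The difference was 6.43 points on the lanes that hold both ages (quasi-binomial p = 0.000298, unadjusted). Only 2 of the 4 CpG rows of this exon were covered in all samples, so the exon was not tested as a region.

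The CpG in *Lct* exon 9 (position 128298707, plus strand) was lower in the P90 lac- mice. It was at 91.2%, 92.3% and 94.7% in the lowest, median and highest P60 mouse and at 86.5%, 88.9% and 89.7% in the P90 lac- mice, which left no overlap. The difference was -3.74 points (SE 0.586, quasi-binomial p = 0.000123, Benjamini-Hochberg adjusted p = 0.0407 over CpG rows and Bonferroni adjusted p = 1 over CpG and CpH rows). The opposite strand was at 89.4% and 89.7% (quasi-binomial p = 0.245, unadjusted). Over its 16 covered rows, the whole of *Lct* exon 9 went from 88.7% ± 0.991 (SD, n = 8) to 87.2% ± 1.00 (SD, n = 7), a difference of -1.52 points (exact permutation p = 0.0143, adjusted p = 0.109). Without P90 lac- replicate 3, at 89.3% the highest of its group, it was -1.87 points and passed the correction (exact p = 0.000666, adjusted p = 0.0366). Leaving out the highest sample of the lower group widens the difference by itself. Of the 15 samples left out in turn, this was the only 1 after which a region passed.

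The CpG in *Mcm6* exon 12 (position 128339454, minus strand) had the third lowest p of the locus. It was at 6.73% ± 1.40 (SD) in P60 and 12.8% ± 3.44 in P90 lac- mice, a difference of 6.03 points (quasi-binomial p = 0.00024, Benjamini-Hochberg adjusted p = 0.0529), while the opposite strand of the same CpG was at 95.8% and 95.3%. It lies under the arm of 1 of the 304 probes of the locus and is copied by none. The arms of a padlock probe are synthetic and stay in the sequenced molecule, so that reads there carry the probe's own base. Of the 660 CpG rows, 20 lie only under such arms, and the 16 of them covered in all samples averaged 4.23% in P60 and 5.58% in P90 lac- libraries.

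Of the other 3 rows among the 6 with the lowest p, *Lct* intron 6 (128305182, minus strand) had the widest difference, 32.6% ± 4.799 (SD) against 44.1% ± 4.97, or 11.5 points (quasi-binomial p = 0.000592, adjusted p = 0.0691) at a median of 198 reads. Its opposite strand was at 38.3% and 40.4% (quasi-binomial p = 0.385, unadjusted). *Lct* exon 13 (128291960, minus strand) was at 84.9% and 82.8%, a difference of -2.07 points (quasi-binomial p = 0.000615, adjusted p = 0.0691). *Mcm6* exon 15 (128334881, minus strand) was at 68.1% and 63.8%, a difference of -4.34 points (quasi-binomial p = 0.000722, adjusted p = 0.0691). The lowest p in *Lct* exon 1 was at position 128327865, with 87.8% and 86.99% (quasi-binomial p = 0.037, unadjusted), and in *Lct* intron 2 at 128314856, with 72.2% and 69.3% (quasi-binomial p = 0.339, unadjusted).

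**Figure D4:**
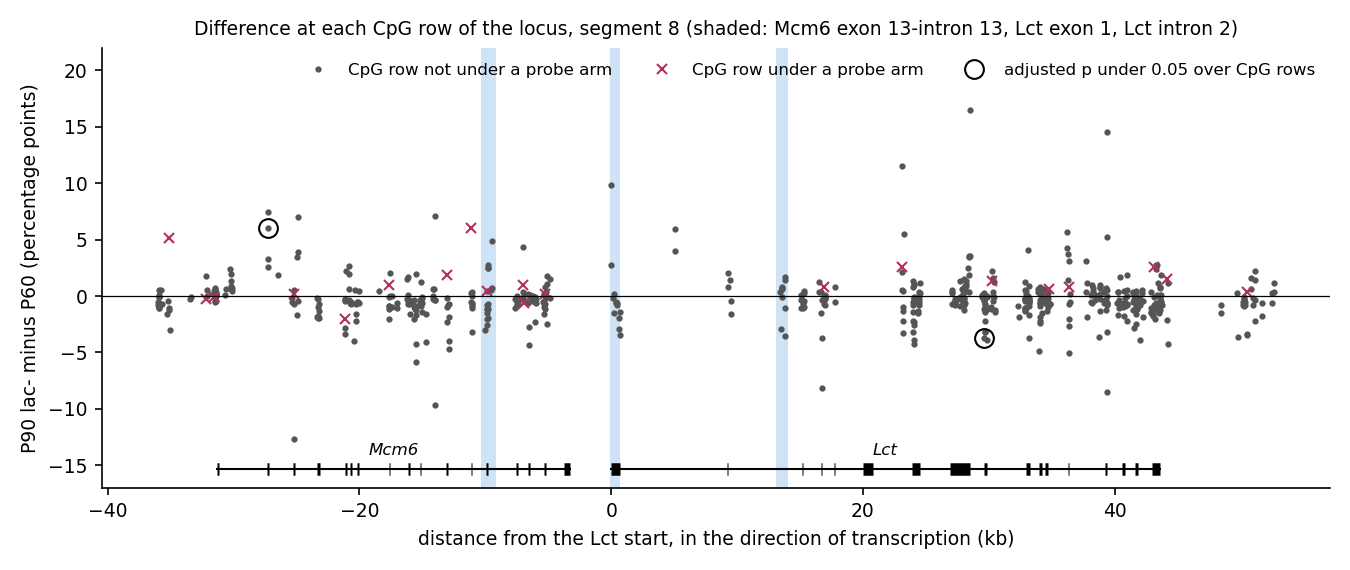
Difference in percent modification between P90 lac- and P60 mice (percentage points, y axis) at each of the 660 CpG rows of segment 8, by distance from the *Lct* start in kb (x axis, *Mcm6* to the left), with exons as blocks and the 3 elements shaded. Most points lie within 1 point of 0 (median absolute difference 0.698), the 20 rows under probe arms are crossed, and the 2 rows with an adjusted p under 0.05 over CpG rows are circled.

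Across annotated regions with at least 3 covered CpG rows, 0 of 55 passed Benjamini-Hochberg correction at 0.05 (0%) in the exact permutation test. At an unadjusted p under 0.05 there were 13 (23.6%), 11 lower (20%) and 2 higher (3.64%) in P90 lac- mice. *Lct* intron 8, which holds 3 covered rows, was one of the 2 higher regions, at 76.9% ± 0.614 (SD, n = 8) and 78.03% ± 0.938 (SD, n = 7), a difference of 1.15 points (exact p = 0.0155, adjusted p = 0.109). With the reads of the rows pooled, the same region differed by 3.42 points and passed (exact p = 0.000311, adjusted p = 0.0171), as did *Lct* exon 13 and *Mcm6* exon 15, which were lower. *Lct* exon 12 (89.6% and 88.9%), *Lct* intron 9 (72.3% and 72.1%) and the weakly modified *Mcm6* intron 1 (9.57% and 10.6%) had exact permutation p from 0.244 to 0.736.

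Over the locus as a whole, the 590 CpG rows covered in every sample averaged 80.9% ± 0.606 in P60 mice (SD, n = 8) and 80.6% ± 0.639 in P90 lac- mice (SD, n = 7). The difference of -0.26 points had an interval from -0.96 to 0.45 (exact permutation p = 0.430). It was 1.04 points on lane 6 and -1.14 points on lane 7. The 724 reference CpG rows, at autosomal targets outside the locus that are mostly imprinted genes, averaged 51.5% and 50.8%, a difference of -0.68 points (exact p = 0.0674). The locus relative to that reference within each sample differed by 0.43 points (exact p = 0.217).

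The highly modified CpGs of the locus were lower in the P90 lac- mice. Rows over 90% modified in P60 mice of the other segments, as far as covered in every sample, were at 93.8%, 94.0% and 94.3% in the lowest, median and highest P60 mouse of segment 8. In the P90 lac- mice they were at 92.8%, 93.6% and 93.8%. Only the highest P90 lac- mouse reached the P60 range. The means, 94.0% ± 0.181 (SD, n = 8) and 93.5% ± 0.356 (SD, n = 7), differed by -0.53 points with a 95% interval from -0.84 to -0.23 (exact permutation p = 0.000622). On the lanes that hold both ages the difference was -0.33 points (exact p = 0.00866), with -0.17 on lane 6 and -0.50 on lane 7. With the class set on P90 lac- mice of other segments instead, it was -0.53 points (exact p = 0.000622). The 42 reference rows of the same class went from 93.1% to 92.7% (exact p = 0.262), and LAC+ mice were at 93.0% ± 0.408 (SD, n = 7) over the locus rows. In segment 7 the same locus rows were at 93.9% ± 0.188 in P60 (SD, n = 8) and 93.5% ± 0.347 in P90 lac- mice (SD, n = 6). These values are given without a test, since P60 samples of segment 7 helped to set the class. The median difference over the 338 such rows tested was -0.53 points, beside -0.38 points over all 660 CpG rows. Rows between 20% and 80% (68.7% and 68.6%, exact p = 0.945) and between 80% and 90% (86.6% and 86.4%, exact p = 0.486) were close, and the 34 rows up to 20% that are not under an arm were at 7.04% and 7.99% (exact p = 0.182). With those under an arm, the 50 covered rows up to 20% were at 6.14% and 7.22% (exact permutation p = 0.0392). Of the 66 rows of that class tested, 56 were higher in P90 lac- libraries, as were 52 of 70 in the reference.

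At CpH, cytosines followed by another base than guanine, the calls were low and separated the ages fully. The 9242 covered rows of the locus averaged 0.341%, 0.372% and 0.384% in the lowest, median and highest P60 mouse, and 0.431%, 0.457% and 0.4932% in the P90 lac- mice. The means differed by 0.0938 points (exact permutation p = 0.000311, the smallest that 6435 splits allow). The difference was present on lane 6 (0.376% and 0.444%) and on lane 7 (0.346% and 0.490%), and with age permuted within lanes (exact p = 0.0133). Of 10244 CpH rows, 7518 were higher in P90 lac- libraries. At an unadjusted p under 0.05 there were 1829 (17.9%), 1771 higher (17.3%) and 58 lower (0.566%). After Bonferroni correction 1 was called (0.00976%), higher in P90 lac- mice at position 128310088 in *Lct* intron 5 (0.449% and 0.794%), and limma called 0.

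The CpH difference was also present outside the locus and under synthetic probe arms. CpH rows of the reference targets were at 0.382% and 0.471% with no overlap (exact p = 0.000311). The 2551 covered CpH rows that lie only under a synthetic probe arm went from 0.422% ± 0.0127 in P60 to 0.475% ± 0.0145 in P90 lac- libraries, 0.0529 points without overlap (exact p = 0.000311), against 0.334% ± 0.0188 and 0.447% ± 0.0296, 0.112 points, at the 6432 rows copied from the sample. It was present at copied CpA (0.303% and 0.390%), CpC (0.346% and 0.461%) and CpT (0.356% and 0.490%) alike. P60 samples of segments 7 and 9 were at 0.369% and 0.379%, and P90 samples of segment 7 lac- and segment 8 LAC+ at 0.467% and 0.452%. The CpG rows under arms differed by 1.35 points in the same direction (exact p = 0.00155). The part of these library-wide differences in the lower values of highly modified CpGs was not tested.

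**Figure D5:**
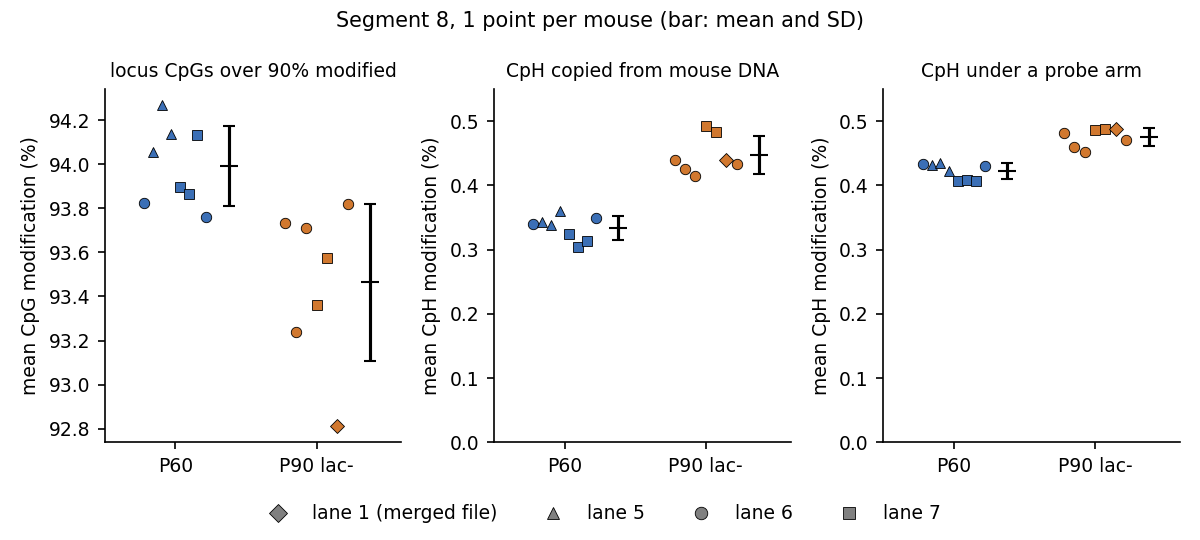
Mean modification (%) in segment 8 of locus CpGs over 90% (left, y axis that does not start at 0), of CpH rows copied from mouse DNA (middle) and of CpH rows under synthetic probe arms (right), 1 point per mouse, with the lane as the symbol and bars for mean and SD. All P90 lac- samples are above all P60 samples in both CpH panels, and the left panel overlaps by 1 P90 lac- mouse.

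At the reference targets, 1 of 863 CpG rows was called after Bonferroni correction (0.116%). With Benjamini-Hochberg correction 23 passed (2.67%), 19 lower (2.2%) and 4 higher (0.463%) in P90 lac- mice. At an unadjusted p under 0.05 there were 123 (14.3%), 77 lower (8.92%) and 46 higher (5.33%), and the groups did not overlap at 5 rows (0.579%), 3 higher (0.348%) and 2 lower (0.232%). The called row lies at position 72803343 of chromosome 15 in the imprinted region of *Peg13* and *Trappc9*, with 48.4% ± 3.23 (SD) in P60 and 59.7% ± 3.26 in P90 lac- mice (quasi-binomial p = 1.95e-06, Bonferroni adjusted p = 0.00168). Its difference was 11.3 points, against 11.05 points without replicate 6 of the P90 lac- mice, the merged sample (quasi-binomial p = 1.81e-05), and 11.26 points on the lanes that hold both ages (quasi-binomial p = 0.000262), and in neither of these was it called. The rows next in order were in *Plagl1* on chromosome 10 (62.5% and 69.6%, quasi-binomial test, Bonferroni adjusted p = 0.0263) and beside *H19* on chromosome 7 (7.66% and 4.53%, adjusted p = 0.0656). None of 19 targets passed the exact permutation test after Benjamini-Hochberg correction (0%), and the lowest was at *Herc3* and *Nap1l5* (exact p = 0.00373, adjusted p = 0.0709).

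Segment 7, the neighbouring segment measured at both ages (8 P60 and 6 P90 lac- mice), was compared in the same way. The *Mcm6* element differed by -2.95 points there (exact permutation p = 0.452), *Lct* exon 1 by -1.06 points (exact p = 0.32), *Lct* intron 2 by -4.14 points (exact p = 0.149) and the locus by -0.30 points (exact p = 0.303). The difference between the segments, 8 minus 7, was 2.88, 0.48, 2.34 and 0.04 points in that order, and none passed the permutation test of the interaction (p from 0.553 to 0.922, adjusted p = 0.913 for the 3 elements and 0.922 for the locus). Each intestine was cut into segments, so samples of segments 7 and 8 can come from the same mouse, but the labels do not state which do and that test took them as separate. The samples were therefore also paired in either of 2 ways, chosen after the data were seen, with age permuted over the 14 differences within pairs. Paired by replicate number, the difference between the segments was 2.196 points at the *Mcm6* element (exact permutation p = 0.401), 0.30 at *Lct* exon 1 (exact p = 0.763), 2.34 at *Lct* intron 2 (exact p = 0.395) and -0.0411 for the locus (exact p = 0.9497). Paired by the sample codes that the data carry, it was 2.86 points (exact p = 0.6254), 0.30 (exact p = 0.634), 2.19 (exact p = 0.573) and 0.0837 (exact p = 0.997) in that order. The 2 ways put different samples together, and which of them marks the mice was not settled.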

How the data were processed

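Percent modification was computed from modified and unmodified read counts per cytosine, which the authors deposited for padlock-probe bisulfite libraries after trimming with Trimmomatic 0.32 and alignment with Bismark (version not given in the sources used here) to GRCm38/mm10, per the labels. These are raw counts, not corrected for incomplete conversion. The first line of each file, a record whose fields run together, was left out. Cytosines between 128275000 and 128366000 of chromosome 1 formed the locus, and CpGs of the other autosomal targets the reference. A value needed more than 30 reads. Single cytosines were tested with a quasi-binomial F test (1 dispersion per cytosine, at least 1) where at least 3 samples per group had a value, with Bonferroni correction at 0.01. Means over cytosines covered in every sample were compared with two-sided exact permutation tests over 6435 splits. Intervals invert those tests. Regions followed GENCODE vM21, and probe arms were placed by matching the study's probe list to the genome. Alternatives were limma 3.58.1 (R 4.3.3) on log2 odds with a pseudocount of 0.5, other read minimums (10 and 100) and corrections, pooled reads, shared lanes, samples without the merged one, lane as a covariate, a replicate block, each sample left out and, chosen after seeing the data, pairing of segments 7 and 8. Other work used Python 3.11.15, NumPy 2.4.6, SciPy 1.17.1 and pandas 2.3.3. The tests were checked on simulated data with shifts wider than most differences given here, so small differences were not simulated.

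CpGs were named as the 6 lowest p of the locus, the lowest p of each element and the 3 lowest p of the reference. Regions were named as the elements, any region called, and a fixed list (*Lct* exon 9, intron 8, intron 9 and exon 12, *Mcm6* intron 1 and exon 2). The members and lists were chosen with earlier results of these data known. Labels number the replicates at both ages, but the P60 and P90 numbers belong to different mice, so no block entered the tests given first.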

Additional observations from a re-analysis of the deposited data

Results flagged for a closer look

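Of 58 groups of values examined, 5 held a sample far from the others of its group by Dixon's criterion, which by chance alone takes about 1 group in 20. In *Lct* exon 9, P90 lac- replicate 3 was at 89.3%, against 86.4% to 87.5% in the others. In *Lct* exon 12, P90 lac- replicate 6, the merged sample, was at 85.5%, against 88.5% to 90.6%. At the CpG of *Lct* exon 9 (128298707), P60 replicate 3 was at 94.7%, against 91.2% to 92.8%. P90 lac- replicate 4 stood apart at both the CpG of *Mcm6* exon 12 (128339454), with 19.8% against 9.08% to 13.4%, and the CpG of *Mcm6* exon 15 (128334881), with 58.2% against 63.2% to 65.9%.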

How the results depend on the processing

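The count of locus CpGs called, 0, rose to 6 with Benjamini-Hochberg correction over CpG and CpH rows and to 2 over CpG rows alone, and was 0 under the other alternatives run. The count for the reference was 23 with Benjamini-Hochberg correction, 0 on shared lanes, with lane as a covariate and without the merged sample, and between 0 and 2 as single samples were left out (2 without P90 lac- replicate 2 or 5, 0 without replicate 6). The *Mcm6* element, at -0.07 points, turned to 2.34 on shared lanes, 1.01 without the merged sample, 3.07 with age permuted within lanes and 0.0251 over all CpG rows of exon 13 and intron 13, and ran from -1.57 to 1.36 as single samples were left out. The rising CpGs turned to 0.39, 0.0438 and 0.62 under the first 3 of these and ran from -0.88 to 0.12. *Lct* intron 2 turned to 0.60 points within lanes. The locus mean turned to 0.0533 with pooled reads and 0.0013 within lanes. Pooled reads brought the reference mean (-0.77 points, exact p = 0.0283) and the locus relative to it (0.82 points, exact p = 0.023) past 0.05. Leaving out single samples moved the reference mean between -0.86 and -0.50 points, with exact p = 0.0186 without P60 replicate 1 and 0.0266 without P90 lac- replicate 7. *Lct* exon 1 passed 0.05 unadjusted over all its rows (-0.99 points). Regions called were 3 with pooled reads and between 0 and 1 as single samples were left out. *Lct* exon 12 turned to 0.40 on shared lanes and 0.48 within lanes, and *Lct* intron 9 to 0.34 and 0.35, with a range of -0.63 to 0.14 as single samples were left out. The difference between segments 8 and 7 turned to -0.0307 on shared lanes and -0.0212 without the merged sample at *Lct* exon 1, and to -0.0012 without the merged sample and -0.0411 with the segments paired by replicate number for the locus. The cause of these changes was not tested.

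With the replicate number as a block (7 pairs, 128 splits) the *Mcm6* element differed by -1.57 points and the locus by -0.39, 0 reference CpGs were called, and the reference mean, -0.72 points, had exact p = 0.0469. Deviations of same-numbered samples of both ages correlated between -0.28 and 0.42, with a mean of -0.00085. Those of different-numbered samples of both ages correlated between -0.60 and 0.59, with a mean of 0.0018. Age cannot be told apart from drink. Lanes 5 and 1 hold 1 age each and give no value within a lane.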
